A study of Mus musculus with 12 samples.

Results

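The interleukin-1 (IL-1) ligands, their receptors and decoys, and the kinases that relay or restrain their signal were followed in cultured mouse cartilage. The genes were Il1a, Il1b, Il18, Il1rn, Il1r1, Il1rap, Il1rl1, Il1r2, Irak2 and Irak3, taken by gene symbol with every probe that carries the symbol. They are 10 of the 34509 symbols and 21 of the 46632 probes on the array. Of the 21 probes, 14 were detected on enough arrays to be tested, and each of the 10 genes had at least 1 of them. Il1a and Il1r2 reached that number through treated arrays only, so a rise was built into their passing. Il1rap reached it through untreated and IL-1α arrays only, so a fall with retinoic acid was built into its passing.

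RNA came from femoral head cartilage explants of 21-day-old TS-4/5∆cat mice, which lack the catalytic domains of both ADAMTS-4 and ADAMTS-5, and every group carried this defect. No wildtype cartilage was analysed here. Explants were left untreated, given 10 ng/mL IL-1α, or given 10 µM retinoic acid (the vitamin A metabolite that acts through nuclear receptors) for 3 days. Each treatment had 4 bead arrays, 2 from the line named Donut, which was batch 1, and 2 from the line named Gertrude, which was batch 2. Line and batch are the same division of the arrays, so the part of each in any difference between them cannot be told apart. The labels do not tie each array to separate animals, and p-values then measure the spread between these arrays, which may be technical.

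IL-1α and IL-1β bind the receptor Il1r1, which recruits the accessory chain Il1rap and then the adaptor Myd88 and the Irak kinases, and the relay ends in NF-κB and MAP kinase activity. The system holds several brakes. Il1rn is an antagonist that occupies Il1r1, Il1r2 is a decoy receptor that binds ligand without signalling, and Irak3 restrains the Irak step. Il1rl1, also called ST2, is the receptor for IL-33 and also has a soluble form that acts as a decoy. In cartilage, IL-1 is known for making chondrocytes degrade their matrix, and it can induce its own genes.

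The promoter windows of the 10 genes show what stands just before the genes whose RNA changed. They come from RefSeq on build GRCm38.p6, and each holds 300 bases, from 250 before a transcript start to 50 after it. All 10 symbols matched, with 15 windows because some genes have several starts. The windows were searched on both strands for the NF-κB consensus (10 letters), for AP-1 as TGANTCA and for the core motif of retinoic acid receptor sites, AGGTCA. An AP-1 match stood in windows of Il1a and Il1rn, whose RNA was higher with IL-1α. Il1b, Irak2, Irak3, Il1r2 and Il1r1 were also higher with IL-1α and had no AP-1 match. The Il1rn matches, here and below, stood only in the window of its most upstream start. The matched letters are in capitals here and below, and TGACCT is the core motif read on the opposite strand.
Il1a, chr2:129309973-129310009, minus strand, match 12 bases before the start: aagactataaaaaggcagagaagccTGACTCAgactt
Il1rn, chr2:24336694-24336750, plus strand, match 141 bases before the start: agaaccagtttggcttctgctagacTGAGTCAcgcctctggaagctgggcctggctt

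The core motif AGGTCA stood in windows of 4 genes, Il1rl1, Irak2, Irak3 and Il1rn. With retinoic acid against untreated, Il1rl1 fell and Irak2 rose, while Irak3 and Il1rn were not called. Il1a, Il1b and Il1rap were called in that comparison and had no AGGTCA match.
Il1rl1, chr1:40439419-40439474, plus strand, match 185 bases before the second start: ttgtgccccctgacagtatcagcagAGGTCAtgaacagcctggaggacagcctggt
Irak2, chr6:113638228-113638283, plus strand, match 214 bases before the start: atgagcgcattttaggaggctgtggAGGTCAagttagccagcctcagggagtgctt
Irak3, chr10:120201660-120201715, minus strand, match 93 bases before a start: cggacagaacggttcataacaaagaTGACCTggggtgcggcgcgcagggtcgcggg
Il1rn, chr2:24336646-24336701, plus strand, match 189 bases before the start: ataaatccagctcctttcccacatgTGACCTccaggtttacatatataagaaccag

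The only NF-κB match stood in a window of Il1r1.
Il1r1, chr1:40266336-40266388, plus strand, match 232 bases before the second start: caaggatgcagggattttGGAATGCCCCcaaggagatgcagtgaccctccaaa

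These matches describe letters and not bound sites. Of all 32851 windows, 4.51% held the NF-κB consensus, against 1 of the 15 windows of these genes. AP-1 letters stood in 7.81% of all windows and in 2 of the 15. Core motif letters stood in 16.3% of all windows and in 4 of the 15. No motif matched in the windows of Il1b, Il1r2, Il1rap or Il18, which says only that these letters are not in these windows.

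All intensities below are normalized and on the log2 scale. The offset used puts a probe without signal at 4 before quantile normalization. The undetected probes of the 10 genes lay above 4, such as Il1r1 (ILMN_1231125) at 4.375 on retinoic acid batch 2 replicate 2. The dimmest detected probe stood at 4.86 to 5.48, depending on the array. Values are listed for batch 1 replicates 1 and 2 and then batch 2 replicates 1 and 2, and a probe counted as detected on an array when its detection p was under 0.05. Batch 1 arrays detected 13786 to 14965 probes and batch 2 arrays 16732 to 19485, with the highest number on untreated batch 2 replicate 2. The treatments were seen in Nos2 (ILMN_1223499), the inducible nitric oxide synthase, which was detected on IL-1α arrays only and was at least 14.1-fold above untreated. Cyp26a1 (ILMN_2691295), which breaks down retinoic acid, was detected on retinoic acid arrays only, at least 19.2-fold above untreated. Of 10 chondrocyte markers, 9 were detected on every untreated array, and Matn3 was undetected.

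With IL-1α, 7 of the 10 genes rose and 0 fell at a limma adjusted p under 0.05 (8 had an unadjusted p under 0.05). Over all 18200 probes tested, 29.3% were called in this comparison and 15.2% were called higher. The genes that rose were Il1b, Il1a, Irak2, Irak3, Il1rn, Il1r2 and Il1r1. The median log2 difference of the 10 was 0.94, or 0.86 with undetected groups set at their bound, beside 0.02 over all probes tested. With retinoic acid, 5 of the 10 were called against untreated, where 35.4% of all probes were called. Il1b, Il1a and Irak2 rose and Il1rl1 and Il1rap fell, while 18.2% of all probes were called higher and 17.1% lower. Their median difference was 0.12, or 0.06 at the bounds, beside 0.02 over all probes. Between the treatments, 7 of the 10 were called, against 31.1% of all probes. Il18 alone of the 7 was higher under retinoic acid, where 15.2% of all probes were called higher and 15.8% lower. The median difference was -0.71, or -0.61 at the bounds, beside -0.03 over all probes. The 3 comparisons share arrays, so their values stand side by side and are not independent. These counts and medians include Il1a, Il1r2 and Il1rap, for which a rise or a fall was built into passing the filter. No count without them was made.

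**Figure D1:**
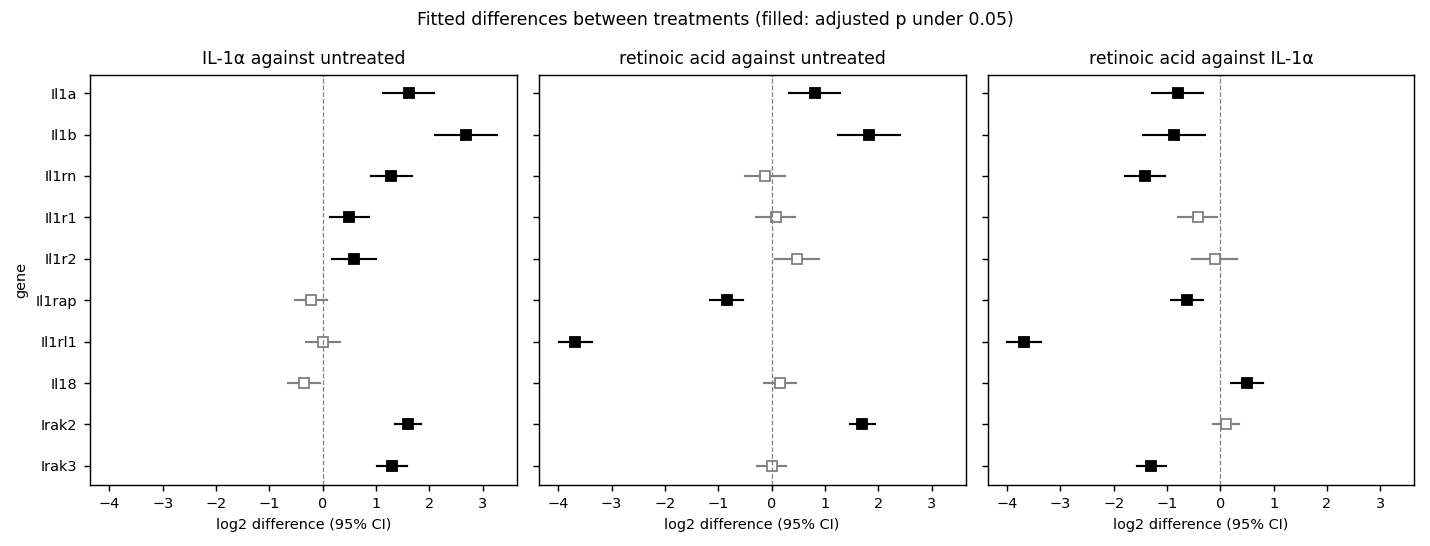
Fitted log2 differences of the 10 genes (rows) with 95% confidence intervals in 3 comparisons (panels), from limma on 12 arrays, each gene by its brightest kept probe. Filled squares have an adjusted p under 0.05. Irak2 lies at 1.60 and 1.70 in the first and middle panels and near 0 in the last, whereas Il1rl1 lies near 0 in the first panel and at -3.68 and -3.69 in the others.

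Il1b, the gene of IL-1β, had the largest rise of the 10 with IL-1α. Its probe (ILMN_1227555) gave 5.34, 5.72, 4.92 and 4.79 in untreated cartilage, and the 2 batch 2 arrays were not detected. It gave 8.63, 8.64, 7.09 and 7.18 with IL-1α. With retinoic acid it gave 8.42, 7.99, 5.84 and 5.84. All treated arrays lay above all untreated arrays, and within each treatment batch 1 lay above batch 2. The rise was 2.69 with IL-1α (SE 0.27, 6.46-fold, adjusted p = 1.30e-05 from limma) and 1.83 with retinoic acid (SE 0.27, 3.55-fold, adjusted p = 1.61e-04). For both, the two-sided exact permutation p over 4 against 4 arrays was 0.0286, the smallest this design allows.

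The rise of Il1b with retinoic acid was 2.67 in batch 1 and 0.98 in batch 2, a difference between batches of -1.69 (adjusted p = 0.00119 from limma). Such a batch difference was called for 2.86% of all probes in this comparison. Untreated batch 2 was below detection for this probe, so the batch 2 rises and the size of the batch difference are not exact. With IL-1α the rise was 3.10 in batch 1 and 2.28 in batch 2, and the batches were not called different (adjusted p = 0.063 from limma). Retinoic acid was below IL-1α by 0.43 in batch 1 and by 1.30 in batch 2, and the pooled difference of -0.86 had an adjusted p of 0.027 from limma. That pooled call was lost without any 1 of 5 arrays, which were both batch 1 IL-1α arrays, both batch 2 retinoic acid arrays and IL-1α batch 2 replicate 2 (values -0.87 to -0.64, adjusted p 0.0502 to 0.12 from limma). It was also lost with an offset of 50, without the filter, and without batch and replicate in the model.

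Il1a, the gene of the cytokine that was also added to the cultures, was not detected in untreated cartilage. Its probe (ILMN_2667672) gave 4.71, 4.68, 4.74 and 4.76 there, all below the detection limit. With IL-1α it gave 6.40, 6.39, 6.53 and 6.00. With retinoic acid it gave 5.99 and 6.24 in batch 1, and 5.02 and 4.87 in batch 2, where it was not detected. IL-1α arrays were thus above background in both batches and retinoic acid arrays in batch 1. Il1a was at least 2.32-fold higher with IL-1α than untreated (difference of measured means 1.61, SE 0.22, adjusted p = 1.60e-04 from limma), and the 2 groups did not overlap. Added IL-1α is a protein and contributes no RNA to the array.

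For retinoic acid against untreated, Il1a was 1.33-fold higher with untreated set at its bound (difference 0.81, adjusted p = 0.0119 from limma). The batch 2 retinoic acid arrays were undetected too, so that fold is not a minimum. The difference was 1.42 in batch 1 and 0.19 in batch 2, where neither group was detected, and the batches differed by -1.23 (adjusted p = 0.0113 from limma). The pooled call was lost without retinoic acid batch 1 replicate 1 (0.68, adjusted p = 0.0512 from limma) and without untreated batch 1 replicate 2 (0.68, adjusted p = 0.061 from limma). It was also lost with normalization within batches, without the filter, and without batch and replicate in the model. Retinoic acid was below IL-1α by 0.80 (adjusted p = 0.0137 from limma), by 0.28 in batch 1 and 1.32 in batch 2. This call was lost without IL-1α batch 2 replicate 1 or either batch 2 retinoic acid array (values -0.64 to -0.58, adjusted p 0.055 to 0.0628 from limma). The filter, or batch and replicate in the model, were also needed for it. The other Il1a probe (ILMN_1243066) was not tested, since it was detected only on the 2 batch 2 IL-1α arrays, at 5.41 and 5.37.

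Il18, a ligand of the same family that caspase-1 cuts to its active form, was not called against untreated on its brightest probe (ILMN_1240661). That probe gave 5.97, 6.14, 5.84 and 5.83 untreated, 5.51, 5.65, 5.41 and 5.84 with IL-1α, and 6.44, 6.17, 5.87 and 5.92 with retinoic acid. The IL-1α arrays reached from below the untreated range into it. The differences from untreated were -0.34 with IL-1α (adjusted p = 0.0786 from limma, or 0.0239 without IL-1α batch 2 replicate 2) and 0.15 with retinoic acid (adjusted p = 0.422 from limma, 95% interval -0.14 to 0.45).

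Every retinoic acid array was above every IL-1α array for this Il18 probe, by 0.50 on average (SE 0.14, 1.41-fold, adjusted p = 0.0143 from limma). The call was lost without the first batch 1 array of retinoic acid (0.38, adjusted p = 0.0733 from limma) or of IL-1α (0.41, adjusted p = 0.0615 from limma). The second Il18 probe (ILMN_1236517) disagreed with it and lay lower with both treatments, by 0.49 with IL-1α (adjusted p = 0.0203 from limma) and by 0.40 with retinoic acid (adjusted p = 0.0386 from limma), with 0.08 between the treatments (adjusted p = 0.719 from limma). It was undetected on 5 of the 6 batch 1 arrays, and its calls were lost without any 1 of 4 arrays for IL-1α and 5 arrays for retinoic acid (adjusted p up to 0.0812 and 0.145 from limma).

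Il1rn, the gene of the receptor antagonist, rose with IL-1α and was not called with retinoic acid against untreated. Its detected probe (ILMN_2682566) gave 4.78 and 4.95 in untreated batch 1, both undetected, and 6.32 and 6.51 in batch 2. With IL-1α it gave 6.24, 6.08, 7.65 and 7.75. With retinoic acid it gave 5.24 and 5.09 in batch 1, both undetected, and 5.73 and 6.01 in batch 2. Batch 2 lay above batch 1 in every treatment, the reverse of Il1b, so the IL-1α arrays of batch 1 lay below the untreated arrays of batch 2 and the pooled groups overlapped (two-sided exact permutation p = 0.171).

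Within a batch the Il1rn groups did not overlap, and IL-1α stood 1.28 above untreated in batch 2, and 1.29 above it in batch 1, where untreated was not detected and the size is not exact. The fitted rise was 1.29 (SE 0.17, 2.44-fold, adjusted p = 1.46e-04 from limma). Retinoic acid differed from untreated by 0.30 in batch 1 and by -0.54 in batch 2, with a pooled difference of -0.12 (adjusted p = 0.631 from limma, 95% interval -0.50 to 0.25). It was lower than IL-1α by 1.41 (SE 0.17, 2.66-fold, adjusted p = 3.72e-05 from limma), with -0.99 in batch 1 and -1.83 in batch 2. The batches differed in this comparison by -0.84 (adjusted p = 0.0269 from limma), as 8.76% of all probes did. Without batch and replicate in the model neither Il1rn call was kept (adjusted p = 0.175 and 0.106 from limma). The other Il1rn probe (ILMN_1233093) was undetected on every array.

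**Figure D2:**
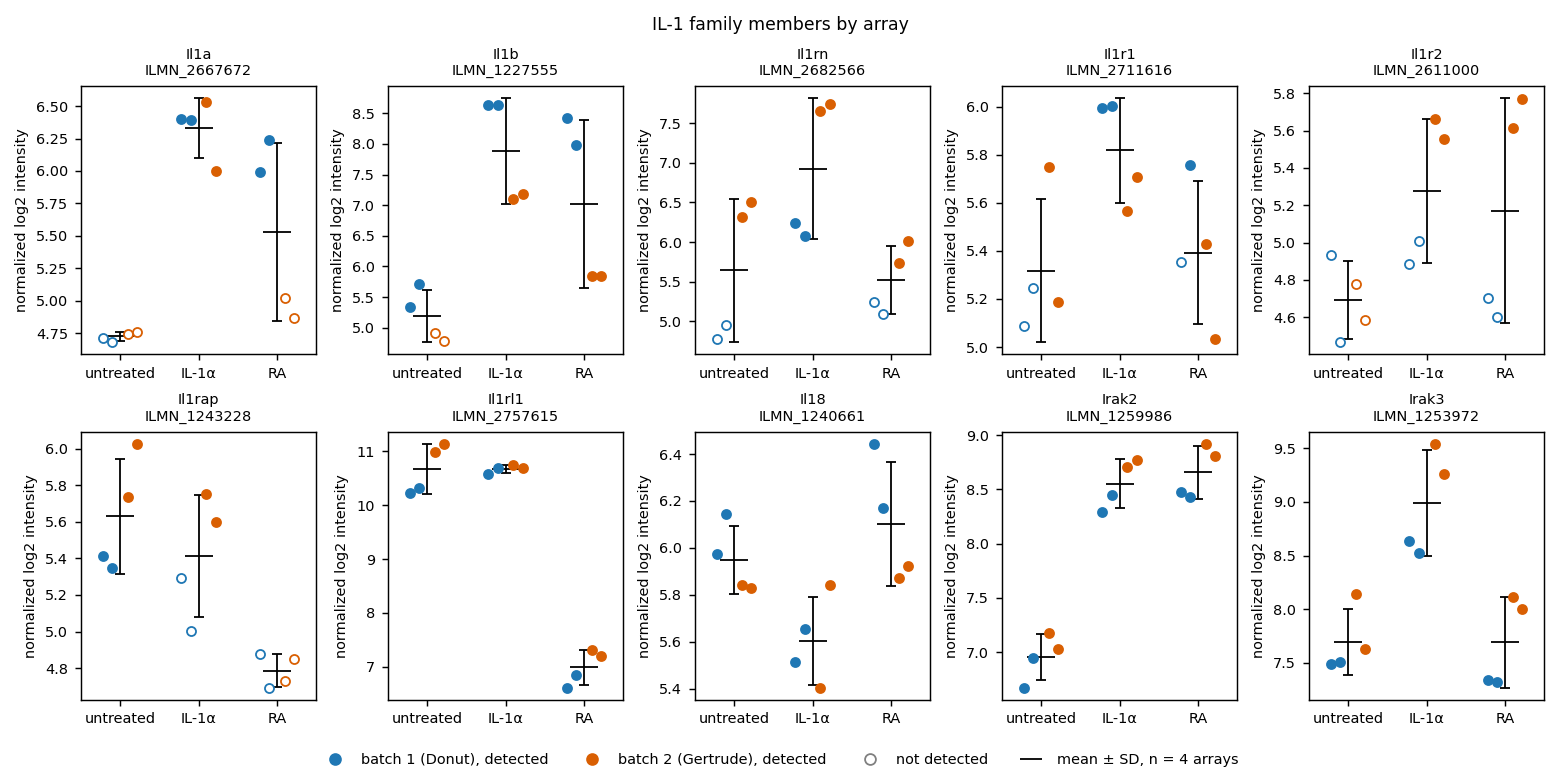
Normalized log2 intensity of the brightest kept probe of each of the 10 genes (panels, each with its own vertical scale) on 12 arrays by treatment, with blue for batch 1 and orange for batch 2, open circles for arrays where the probe was not detected, and bars for the mean and SD of 4 arrays. Il1b sits higher in batch 1 and Il1rn higher in batch 2, while Irak2 sits above 8 on all treated arrays and below 7.5 on all untreated arrays.

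Il1r1, the signalling receptor for IL-1, lay near the detection limit. Its detected probe (ILMN_2711616) gave 5.09, 5.25, 5.75 and 5.19 untreated, with the batch 1 arrays undetected, and 6.00, 6.00, 5.57 and 5.71 with IL-1α. With retinoic acid it gave 5.35, which was undetected, and then 5.76, 5.43 and 5.03. The groups overlapped in every comparison. The difference with IL-1α was 0.50 (SE 0.17, adjusted p = 0.0392 from limma), made up of 0.83 in batch 1 and 0.17 in batch 2. This call was lost in 13 of 20 alternatives, 7 of which left out 1 array (both batch 1 arrays of the untreated and IL-1α groups, retinoic acid batch 2 replicate 1, and the second batch 2 arrays of the untreated and IL-1α groups, with adjusted p 0.0503 to 0.153 from limma). Retinoic acid differed from untreated by 0.08 (adjusted p = 0.766 from limma, 95% interval -0.29 to 0.44) and from IL-1α by -0.42 (adjusted p = 0.0722 from limma). The latter was called without untreated batch 2 replicate 1, IL-1α batch 2 replicate 1 or retinoic acid batch 1 replicate 2, with the lowest adjusted p at 0.0189 from limma. The other Il1r1 probe (ILMN_1231125) was undetected on every array.

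Il1rap, the accessory chain that Il1r1 shares with the IL-33 receptor, was detected on untreated and IL-1α arrays only. Its brightest probe (ILMN_1243228) gave 5.41, 5.35, 5.74 and 6.03 untreated. It gave 5.29 and 5.00 in IL-1α batch 1, both undetected, and 5.75 and 5.60 in batch 2. With retinoic acid it gave 4.88, 4.69, 4.73 and 4.85 and was undetected on all 4 arrays. Retinoic acid lay below every array of the other groups. Il1rap was at least 1.36-fold lower with retinoic acid than untreated (difference of measured means -0.84, SE 0.14, adjusted p = 4.17e-04 from limma), with -0.60 in batch 1 and -1.09 in batch 2. Against IL-1α it was 1.17-fold lower with retinoic acid set at its bound, not a minimum because the batch 1 IL-1α arrays were undetected too. The difference was -0.63 (adjusted p = 0.00398 from limma). This call was lost with median scaling (adjusted p = 0.0533 from limma) and without batch and replicate in the model (adjusted p = 0.0754 from limma). IL-1α itself differed from untreated by -0.22 (adjusted p = 0.269 from limma, 95% interval -0.52 to 0.09).

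The other 5 Il1rap probes were near background. ILMN_1233678 was detected in batch 2 only, on both untreated arrays (5.19 and 4.93) and both IL-1α arrays (5.76 and 5.37), and was not called in a comparison, with -0.22 for retinoic acid against untreated (adjusted p = 0.367 from limma). ILMN_1226428 was detected on 1 array (5.11, IL-1α batch 2 replicate 1). The remaining 3 were undetected on every array.

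Il1rl1, the IL-33 receptor ST2, had the largest fall of the 10 genes. Its bright probe (ILMN_2757615) gave 10.23, 10.31, 10.98 and 11.14 untreated, 10.58, 10.69, 10.74 and 10.69 with IL-1α, and 6.62, 6.84, 7.30 and 7.19 with retinoic acid. All arrays were detected, and the retinoic acid arrays lay below all others by more than the spread of any group, with means of 10.67 ± 0.46, 10.67 ± 0.07 and 6.99 ± 0.32 (SD, n = 4). Retinoic acid against untreated gave a log2 difference of -3.68 (SE 0.15, 12.8-fold, adjusted p = 1.54e-09 from limma), with -3.54 in batch 1 and -3.81 in batch 2. Against IL-1α the difference was -3.69 (SE 0.15, 12.9-fold, adjusted p = 1.60e-09 from limma). IL-1α differed from untreated by 0.01 (95% interval -0.31 to 0.32, adjusted p = 0.973 from limma), with IL-1α above untreated in batch 1 and below it in batch 2.

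The other 2 Il1rl1 probes did not follow the bright one. ILMN_1243504 was detected on 9 arrays at 5.07 to 5.95, and retinoic acid differed from untreated by 0.08 (adjusted p = 0.636 from limma, 95% interval -0.17 to 0.33). ILMN_2461338 was detected on 4 arrays at 5.02 to 5.38, with a difference of -0.10 (adjusted p = 0.605 from limma). Which Il1rl1 transcripts each probe reads was not analysed here, so the values do not separate the membrane from the soluble form.

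**Figure D3:**
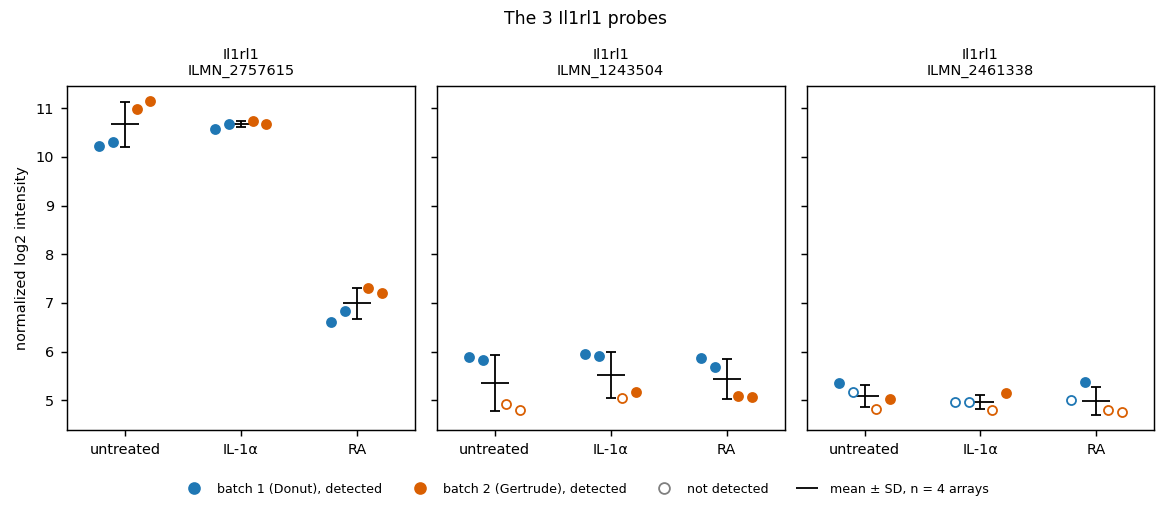
Normalized log2 intensity of the 3 Il1rl1 probes (panels, shared vertical axis) on 12 arrays by treatment, with blue for batch 1, orange for batch 2, open circles for undetected arrays and bars for mean and SD of 4 arrays. One probe falls from about 10.67 to 6.99 with retinoic acid and the other probes stay near the detection limit in every treatment.

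Il1r2, the decoy receptor for IL-1, was undetected on every untreated array and on every batch 1 array. Its probe (ILMN_2611000) gave 4.94, 4.47, 4.78 and 4.59 untreated. It gave 4.88, 5.01, 5.66 and 5.55 with IL-1α, and 4.70, 4.60, 5.61 and 5.77 with retinoic acid. Detection on the 4 treated batch 2 arrays was thus all that let Il1r2 be tested, and leaving out any 1 of these arrays took it out of the test. With untreated set at its bound the fold with IL-1α was 1.11, which is not a minimum because the batch 1 IL-1α arrays were undetected too. The difference with IL-1α was 0.58 (adjusted p = 0.0378 from limma), with 0.24 in batch 1 and 0.92 in batch 2. It was lost in 8 of 16 alternatives, among them without IL-1α batch 1 replicate 2 and without untreated batch 1 replicate 2, batch 2 replicate 1 or batch 2 replicate 2 (values 0.39 to 0.67, adjusted p 0.0611 to 0.161 from limma).

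With retinoic acid the Il1r2 difference was 0.48 (adjusted p = 0.0724 from limma), with -0.05 in batch 1 and 1.01 in batch 2, and the batches differed by 1.06 (adjusted p = 0.0247 from limma). The pooled difference was called in 5 of 16 alternatives, which were median scaling (0.69, adjusted p = 0.0475 from limma), normalization within batches (0.63, adjusted p = 0.0456 from limma), no replicate block (0.48, adjusted p = 0.0489 from limma) and leaving out untreated batch 1 replicate 1 (0.72, adjusted p = 0.00857 from limma) or retinoic acid batch 1 replicate 1 (0.62, adjusted p = 0.0424 from limma). Retinoic acid and IL-1α differed by -0.10 (adjusted p = 0.734 from limma, 95% interval -0.52 to 0.31).

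Irak2, a kinase that carries the signal from the receptor complex, rose with both treatments. Its probe (ILMN_1259986) gave 6.67, 6.95, 7.18 and 7.03 untreated, 8.29, 8.45, 8.71 and 8.77 with IL-1α, and 8.48, 8.43, 8.92 and 8.81 with retinoic acid. No treated array came within the untreated range. The rise was 1.60 with IL-1α (SE 0.11, 3.02-fold, adjusted p = 4.89e-07 from limma) and 1.70 with retinoic acid (SE 0.11, 3.25-fold, adjusted p = 1.08e-07 from limma). The treatments overlapped and differed by 0.10 (95% interval -0.13 to 0.34, adjusted p = 0.528 from limma).

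Irak3, the kinase-like protein that restrains this relay, rose with IL-1α and was lower with retinoic acid than with IL-1α. Its probe (ILMN_1253972) gave 7.49, 7.51, 8.14 and 7.63 untreated, 8.63, 8.52, 9.54 and 9.26 with IL-1α, and 7.33, 7.32, 8.12 and 7.997 with retinoic acid. Every IL-1α array lay above every other array, and the retinoic acid arrays overlapped the untreated ones. The rise with IL-1α was 1.30 (SE 0.13, 2.46-fold, adjusted p = 1.10e-05 from limma). Retinoic acid differed from untreated by 0.00 (95% interval -0.28 to 0.28, adjusted p = 0.999 from limma) and from IL-1α by -1.30 (adjusted p = 4.66e-06 from limma). The test between treatments is the one that sets Irak3 apart from Irak2, whose treatments were not called different.

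The order of the levels differed among the genes. For Il1a and Il1b the means ran from untreated through retinoic acid to IL-1α, with IL-1α and retinoic acid overlapping across batches. For Il1rn and Irak3 the mean was highest with IL-1α, and retinoic acid was not called against untreated. That difference changed sign between batches 1 and 2, with 0.30 and -0.54 for Il1rn and -0.17 and 0.17 for Irak3. In batch 1 Il1rn was undetected in both of these groups. For Irak2 both treatments stood together above untreated. For Il1rl1 and Il1rap retinoic acid stood alone at the bottom.

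The effect of a treatment differed between the batches for 0 of the 10 genes with IL-1α (limma, 4 at an unadjusted p under 0.05), where 4.82% of all probes were called. It differed for 3 with retinoic acid against untreated, which were Il1a, Il1b and Il1r2, beside 2.86% of all probes, and for 3 between the treatments, which were Il1a, Il1b and Il1rn, beside 8.76%. Apart from Il1b between the treatments, each of these values rests on at least 1 pair of arrays where the gene was not detected, so its size is not exact. Within batch 2 alone, retinoic acid was below IL-1α by over 1 for each of Il1a, Il1b and Il1rn. Batch 1 had smaller differences of the same sign for all 3 of them.

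**Figure D4:**
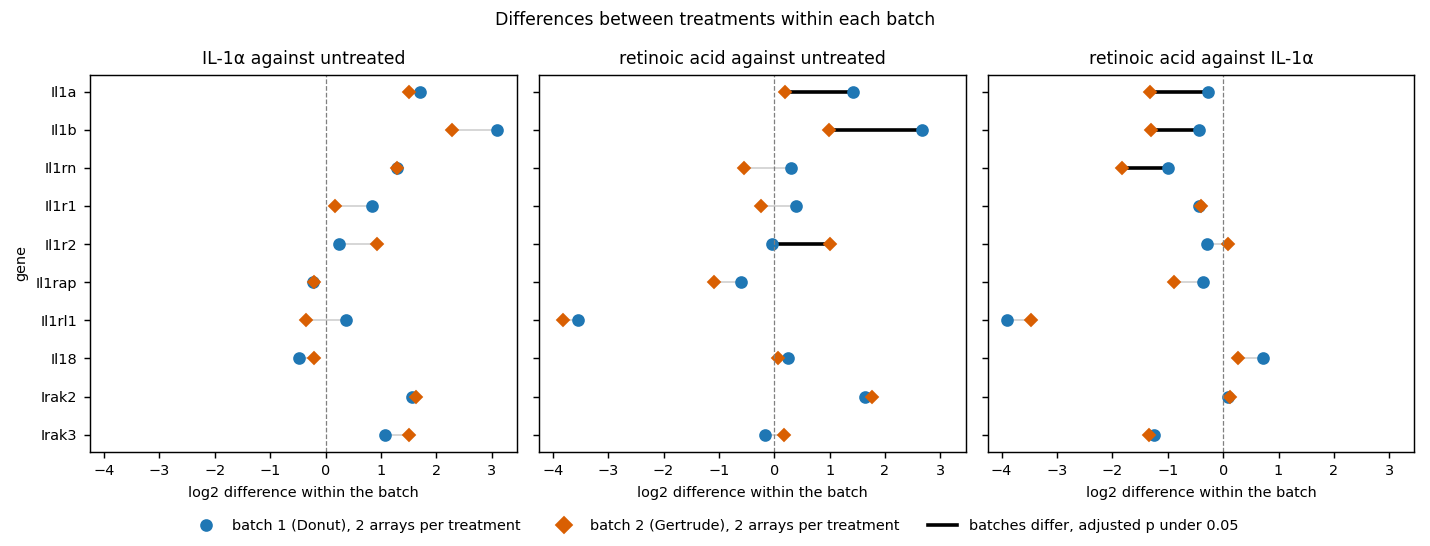
Log2 differences within batch 1 (circles) and batch 2 (diamonds) for the 10 genes (rows) in 3 comparisons (panels), each from 2 arrays per treatment. Thick lines join batches that differed at an adjusted p under 0.05, which were Il1a, Il1b and Il1r2 in the middle panel and Il1a, Il1b and Il1rn in the last. Irak2 has nearly the same value in both batches in each panel.

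The cartilage also holds other cells, and in bulk RNA fewer cells of a type and less RNA per cell cannot be told apart. The marker counts here and below stand beside the counts over all 18200 probes tested. With IL-1α 2767 of these probes were called higher and 2567 lower, and with retinoic acid 3320 higher and 3116 lower. Chondrocyte markers fell with retinoic acid for 9 of the 9 tested (median difference -2.25), and the log2 of their summed intensity went from 16.24 to 16.40 untreated to 14.26 to 14.63. Acan, the aggrecan core protein gene, differed by -4.22 on its brightest probe and by -4.34 on the other. Col2a1, the type II collagen gene, differed by -1.42 on its brightest probe and by -4.93 and -1.84 on the others. Osteoblast markers fell with retinoic acid for 3 of the 4 tested, with a summed log2 of 13.24 to 13.50 untreated and 11.44 to 12.07. Of the T and NK cell markers, 1 of the 2 tested fell (Nkg7, -0.93, adjusted p = 0.0185 from limma) and Cd3e, Cd3g and Gzmb were undetected on all arrays. These lists moved the same way as Il1rl1 and Il1rap, as did the neutrophil list below (5 of 9 fell). The part of any of these cells in those falls was not tested. With IL-1α, 6 of the 9 chondrocyte markers tested fell (median difference -1.02), and their summed log2 was 15.60 to 15.91. Mast cells are known to carry Il1rl1, and 6 of the 7 mast cell markers on the array (Cma1, Cpa3, Fcer1a, Hdc, Mcpt4 and Ms4a2) were undetected on all 12 arrays. The other marker, Kit, differed by 0.46 with retinoic acid (adjusted p = 0.0894 from limma). The part of mast cells in the Il1rl1 values was not tested. Endothelial markers fell with IL-1α for 3 of the 5 tested (summed log2 10.89 to 11.20 untreated and 9.85 to 10.25 with IL-1α) and rose with retinoic acid for 1. Osteoblast markers fell with IL-1α for 3 of the 4.

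Macrophages and neutrophils are known sources of Il1a, Il1b and Il1rn. Of 8 macrophage markers tested, 2 rose with IL-1α (Cd14 by 2.73 and Cd68 by 0.97) and 5 fell, among them C1qb (-1.82), and Itgam was undetected throughout. With retinoic acid 5 of the 8 rose, among them C1qb (1.51) and Cd14 (1.21), and 0 fell. Mrc1, not called when pooled, differed by -1.41 in batch 1 and 0.015 in batch 2 (adjusted p of the batch difference 0.0113 from limma). The summed log2 of the macrophage list was 12.60 to 12.90 untreated, 12.34 to 13.12 with IL-1α and 13.11 to 13.29 with retinoic acid. Of 9 neutrophil markers, 0 were called with IL-1α in the pooled test (limma, 3 at an unadjusted p under 0.05), and their summed log2 was 13.26 to 13.99 untreated and 14.05 to 14.12 with IL-1α. The IL-1α effect differed between batches for Elane (0.14 in batch 1 and 1.73 in batch 2, adjusted p = 0.00113 from limma) and Mpo (-0.40 and 0.72, 0.00998). It also differed for Camp (-0.11 and 0.78, 0.0325) and S100a9 (-0.05 and 0.72, 0.0488), but not for the other neutrophil markers, beside 4.82% of all probes. With retinoic acid 5 of the 9 neutrophil markers fell in the pooled test, among them Mpo (-2.10) and Elane (-1.45), and the sum was 12.47 to 13.86. All 5 falls were larger in batch 1. Mpo differed by -3.70 in batch 1 and -0.50 in batch 2 (adjusted p of the batch difference 1.65e-06 from limma). Elane differed by -2.83 and -0.08 (8.00e-06). The batches were also called different for Ltf (0.00891) and Ngp (0.00161), but not for Camp (0.351). Over all probes, 2.86% were called for this batch difference. S100a8 and S100a9, not called when pooled, were lower in batch 1 and higher in batch 2 (0.745 and 0.545). None of the neutrophil markers was undetected in a whole group. The part of these cells in the ligand and antagonist values was not tested.

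Of 30 other genes of IL-1 family signalling, listed by their place in the pathway, 19 could be tested. With IL-1α 4 of the 19 rose and 0 fell, beside 29.3% of all probes called, with a median difference of 0.33. They were Map3k8 (1.71), a kinase of the MAP kinase branch, Tab2 (0.61), an adaptor of the kinase Tak1, Tollip (0.45), an inhibitor of the Irak step, and Map3k3 (0.36). Map3k8 went from 7.60 ± 0.17 to 9.31 ± 0.13 (SD, n = 4) with an SE of 0.11 (adjusted p = 3.03e-07 from limma) and was 7.34 ± 0.04 (SD, n = 4) with retinoic acid, where it differed from untreated by -0.26 (adjusted p = 0.0913 from limma).

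With retinoic acid 6 of the 19 rose and 0 fell, beside 35.4% of all probes called, with a median difference of 0.17. Il18bp, the secreted inhibitor of IL-18, rose by 1.14 (SE 0.18, adjusted p = 3.15e-04 from limma), by 1.18 in batch 1 and 1.09 in batch 2. Peli1 (0.94), a ubiquitin ligase, and Casp1 (0.92), the protease that matures IL-1β and IL-18, came next. The smaller rises were Tab2 (0.59), Traf6 (0.59) and Irak4 (0.58), all parts of the relay from Myd88. Each value is from the brightest probe. The other tested probes of Traf6 (-0.07 and 0.05), Irak4 (0.13) and Peli1 (0.27) were not called. Casp1 was 8.06 ± 0.22 untreated and 8.97 ± 0.17 with retinoic acid (SD, n = 4), and all 4 arrays lay above all untreated arrays (adjusted p = 5.31e-05 from limma).

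Between the treatments 7 of the 19 were called, 6 of them higher with retinoic acid, beside 31.1% of all probes called and 15.2% called higher, with a median difference of 0.05 (0.00 at the bounds). The 6 were Il18bp (0.72), Casp1 (0.62), Peli1 (0.58), Peli2 (0.48), Irak1 (0.42) and Tab1 (0.33). Other tested probes of Irak1 (0.01 and 0.16) and Tab1 (-0.10) were not called. Map3k8 was lower with retinoic acid, with a log2 difference of -1.97 (adjusted p = 3.07e-08 from limma). Il33, the ligand of Il1rl1, was not called, with 0.02 for IL-1α (adjusted p = 0.942 from limma) and -0.10 for retinoic acid (adjusted p = 0.608 from limma). Myd88 differed by 0.36 with IL-1α (adjusted p = 0.0966 from limma) and by 0.41 with retinoic acid (adjusted p = 0.0525 from limma).

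**Figure D5:**
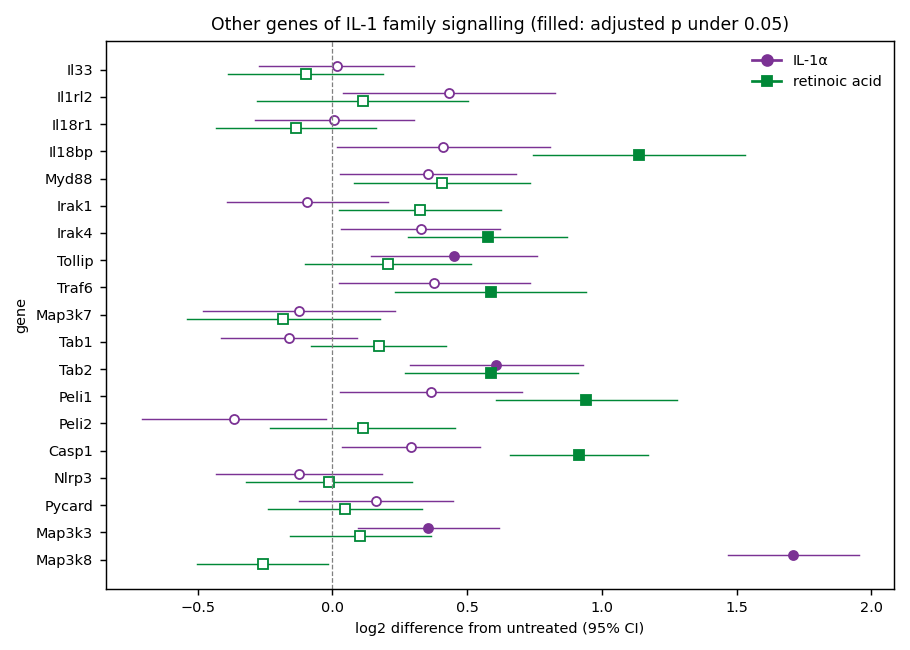
Fitted log2 differences from untreated, with 95% confidence intervals, for the 19 tested genes of IL-1 family signalling outside the 10 (rows), with circles for IL-1α and squares for retinoic acid and filled symbols for an adjusted p under 0.05. Map3k8 at 1.71 stands far from the other IL-1α values, and Il18bp, Peli1 and Casp1 have the largest retinoic acid values.

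The 10 genes were also compared by the shape of their values over the 12 arrays after each batch was centred on its mean. These correlations are descriptions over arrays that share treatments and batches. Il1a and Il1b had a Pearson r of 0.94, Il1rn and Irak3 0.89, Il1b and Irak2 0.88, and Il1rap and Il1rl1 0.88. Il18 and Irak3 had the lowest value, -0.77. Among the other genes on the array, Il1b was most like Ccl3 (0.99), a chemokine gene, Batf (0.98) and MGC67181 (0.98). Il1a was most like Ube2f, Cap1 and 1110008P14Rik (0.96, 0.96 and 0.95). Il1rn was most like Saa1 (0.98), an acute phase protein gene, Lpin3 (0.98) and D830014E11Rik (0.98). Irak3 was most like Trim11, Gch1 and Pfkfb4 (0.98 each), and Irak2 was most like Tmem14c, Mllt11 and Kcnj15 (0.99 each). Il1rl1 was most like Tmem39a, Stbd1 and Faah (0.99 each), and Il1rap was most like 1110006E14Rik, Osbpl1a and Slc19a3 (0.97, 0.97 and 0.96). Il18 was most like Sdhb, 2210404O07Rik and Tceb2 (0.97, 0.96 and 0.95). The lowest such values were those of Il1r1 with Olfr916, 5630401D24Rik and Lyzl4 (0.93, 0.93 and 0.92) and of Il1r2 with Myd88, 2610015J01Rik and BC002216 (0.92, 0.91 and 0.90).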

How the data were processed

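Total RNA from 12 explant cultures was hybridised to Illumina mouse bead arrays. The authors deposited raw probe intensity values (linear, not background-corrected and not normalized) and a detection score per probe and array. The score rose with intensity (Spearman correlation 0.9956 to 0.9988), and 1 minus the deposited score was read as the detection p. Of the columns of values, 0 were left without a sample. The submitters' processing notes name limma, and the build and bead summary software are not given in the sources used here. The labels describe 4 hips per well held in 10% serum for 24 hours before treatment, whereas the study's methods describe culture without serum and 3 unpooled mice per treatment.

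The neqc function of limma 3.58.1 in R 4.3.3 corrected the background and applied quantile normalization with an offset of 16. Probes detected at p under 0.05 on at least 4 of 12 arrays were kept (18200 of 46632), which needs no treatment labels. The model had terms for treatment and for the 4 combinations of batch and replicate, as the study's methods describe, and p-values were adjusted by Benjamini-Hochberg over all kept probes at 0.05. A second model of treatment by batch tested differences between batches. Exact permutation tests were two-sided. A group with no detected array for a probe has only a bound on its level. For the fold, each array of that group was set at its dimmest detected signal, or at the probe's value where that was higher, before averaging. The fold is a minimum only where the other group was detected on every array, since undetected arrays there kept their measured values. A gene was counted by its kept probe of highest mean, and no probe's level was set against another's as an amount. The functions were tested on simulated data. With 4 arrays per treatment, the number of arrays limits the precision.

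The alternatives were no background correction, median scaling, normalization within batches, an offset of 50, no filter, other detection limits, models without the replicate block or without batch, leaving out each array, and, added after the data were seen, each batch alone. The 10 genes, the pathway and marker lists and the motifs were chosen with earlier results of these data known. The named genes are the 10 members with every probe, pathway genes called in a comparison (at most 10 by size), Nos2 and Cyp26a1 as treatment checks, and the 3 genes most like each member. Il33, Myd88 and the marker genes given as examples were named after their values were seen. Gene symbols are those of the array.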

Additional observations from a re-analysis of the deposited data

Results flagged for a closer look

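For 3 genes the effect of retinoic acid against untreated differed between batch 2 and batch 1. The batch 2 effect minus the batch 1 effect was -1.23 for Il1a (adjusted p = 0.0113 from limma), -1.69 for Il1b (adjusted p = 0.00119) and 1.06 for Il1r2 (adjusted p = 0.0247), beside 2.86% of all probes called. For retinoic acid against IL-1α it was -1.04 for Il1a (adjusted p = 0.0155), -0.87 for Il1b (adjusted p = 0.036) and -0.84 for Il1rn (adjusted p = 0.0269), beside 8.76% of all probes called. Apart from Il1b against IL-1α, each value rests on at least 1 pair of arrays where the gene was not detected, so its size is not exact. Mouse line and batch cannot be told apart in these differences. Probes left out of the tests were detected on treated arrays and on 0 of 4 untreated arrays for Il1a (ILMN_1243066, 2 IL-1α arrays) and Il1rap (ILMN_1226428, 1 IL-1α array). No array stood apart from its group of 4 among the 30 groups examined. Each group pools 2 arrays from each batch. Where the batches differ, the widest gap lies between them, so this rule could hardly mark an array.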

How the results depend on the processing

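Of 19 called differences of the 10 genes, 0 changed sign in the alternatives. The number still called was 18 without background correction, 16 with median scaling, 17 with normalization within batches, 16 with an offset of 50, 14 without the filter, 19 with detection on at least 2 arrays, 7 of 7 tested with detection on all 12, 15 of 15 tested at a detection p under 0.01, and 15 to 19 with 1 array left out. The replicate numbers were not shown to pair the arrays: replicate deviations correlated between treatments at 0.00 to 0.06 in batch 1 and at -0.11 to 0.39 in batch 2. Without the replicate block all 19 were still called and retinoic acid against untreated gained Il1r2 (6 genes). Without batch and block 9 were still called.

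In the order IL-1α against untreated, retinoic acid against untreated and retinoic acid against IL-1α, the numbers of the 10 genes called (7, 5 and 7) became 2, 2 and 3 with detection on all 12 arrays, where only 4 genes were tested, and 4, 3 and 2 without batch and block. In batch 1 alone the last was 4. The pathway numbers (4, 6 and 7) became 1, 1 and 2 without batch and block. For IL-1α the pathway number was 1 with median scaling, 8 in batch 1 alone, 2 in batch 2 alone and 2 to 5 with 1 array left out, lowest without IL-1α batch 1 replicate 1 or untreated batch 1 replicate 2. For retinoic acid against IL-1α it was 4 without the filter and 3 to 7 with 1 array left out, lowest without retinoic acid batch 2 replicate 1, with 4 without IL-1α batch 1 replicate 1. Genes called for a batch difference (0, 3 and 3) numbered 2 for IL-1α without background correction, with normalization within batches and with an offset of 50, and 1 with median scaling or no filter. With 1 array left out they numbered 0 to 2, the highest without untreated batch 1 replicate 2 or batch 2 replicate 2. For retinoic acid against untreated they numbered 1 with median scaling, 0 with detection on all 12 arrays and 1 to 4 with 1 array left out, lowest without retinoic acid batch 1 replicate 2 or batch 2 replicate 2. For retinoic acid against IL-1α they numbered 5 with normalization within batches, 0 with detection on all 12 arrays and 0 to 3 with 1 array left out, with 0 without either batch 1 IL-1α array and 1 without any other treated array.

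Differences that changed sign were small and not called in any setting. Il1r1 with retinoic acid against untreated was -0.032 with normalization within batches and -0.040 to 0.247 with 1 array left out. Il1r2 between the treatments was 0.10 with median scaling and -0.203 to 0.026 with 1 array left out. Il1rl1 with IL-1α was -0.10 to 0.13, Il1rn with retinoic acid against untreated -0.289 to 0.036 and Irak3 with retinoic acid against untreated -0.117 to 0.079 with 1 array left out, and the last was -0.002 with normalization within batches. The causes of these changes were not tested. Signal over background limits Il1a, Il1r1, Il1r2 and Il1rap most, since their values lie near the lowest detected signal.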
